A study of Mus musculus with 6 samples.

Results

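The SLC25 carriers are proteins that, with few exceptions, move metabolites across the inner mitochondrial membrane. They were taken as all genes of the deposited table whose symbol is Slc25a followed by a number, which gave 46 of 16759 genes. Hind leg muscle of 3 control (Con) and 3 exercise (EX) male C57BL/6J mice was used for RNA sequencing, each mouse giving 1 library, and no genetic change is described for either group. Mice were 8 weeks old at the start, EX mice ran on a treadmill in daily sessions of 60 min, 5 per week over 6 weeks, reaching 22 km per mouse, and Con mice did no treadmill training. EX muscle was taken 24 h after the last session, so the comparison is of trained muscle after a day of rest with untrained muscle. When Con mice were killed is not stated. Mice were perfused with phosphate-buffered saline, fat between the muscles was removed, and a piece the size of a soybean was used for RNA. Which muscle of the hind leg the piece came from is not given in the sources used here. Whole tissue was sequenced, so fewer cells of a type and less RNA per cell cannot be told apart.

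Carriers of this family share a fold built from repeats of the same unit and pass one kind of small molecule through the membrane, usually in exchange for another. They link the cytosol to the enzymes of the matrix: ADP goes in and ATP comes out, phosphate follows for ATP synthesis, the malate-aspartate exchange brings in reducing power from glycolysis, and acylcarnitines bring in fatty acids for oxidation. Skeletal muscle depends on all of these routes when it contracts, and it is known for one dominant ADP/ATP exchanger. The 46 genes were grouped by the substrate each is known to carry, namely nucleotides, phosphate, keto acids, amino acids and glutathione, carnitine, metals, cofactors, uncoupling protein-like carriers and carriers of unsettled substrate or other function.

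The deposited estimated counts totalled between 13845362 and 16240431 per library, and the carriers took between 0.587% and 0.627% of them. Of the 46 carriers, 37 had a mean of at least 1 FPKM (a level per transcript length and library depth) and were tested with edgeR's quasi-likelihood test on rounded counts. P-values were adjusted by Benjamini-Hochberg over all 10883 genes tested, and a gene was called different at an adjusted p under 0.05 whatever the size of its change. Mice were compared on CPM, which are counts after TMM scaling to one depth, and genes on FPKM. The paper states that mice were divided at random into Con and EX. Beyond this and 1 library per mouse, nothing in the sources says how the 6 samples relate. The p-values weigh the difference between groups against the spread between these libraries.

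The largest change of the family was that of Slc25a25 (gene 227731), a calcium-regulated carrier that exchanges ATP-Mg for phosphate and so helps to set the size of the adenine nucleotide pool in the matrix. Its counts were 889, 960 and 1022 in Con replicates 1 to 3 and 2856, 2691 and 2759 in EX replicates 1 to 3. The lowest EX library lay far above the highest Con library, and the mice of each group lay close together. Its level was 63.0 ± 1.66 CPM (SD, n = 3) in Con and 175.6 ± 4.41 CPM in EX, a rise of 2.79-fold (log2 fold change 1.48, standard error 0.04, edgeR adjusted p = 6.91e-20). By log2 fold change it ranked 16 from the top among the 10883 genes tested. Slc25a30 (67554), the kidney mitochondrial carrier that is also named UCP6, was the only other carrier called with a change of at least 1.5-fold. Its counts were 140, 173 and 188 in Con and 275, 265 and 278 in EX, again with no overlap. Its level rose from 10.95 ± 0.875 to 17.3 ± 0.393 CPM, or 1.57-fold (log2 fold change 0.66, standard error 0.09, edgeR adjusted p = 1.87e-06).

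These 2 genes carry the larger differences, so the 250 bases before their RefSeq transcription starts are shown, each read 5′ to 3′ on the strand of the gene (assembly GRCm38.p6, both genes on the minus strand). RefSeq gives Slc25a25 3 starts, and the windows are chr2:32451471-32451720 for start 1, chr2:32431152-32431401 for start 2 and chr2:32424067-32424316 for start 3. The window of Slc25a30 is chr14:75787038-75787287. Capitals mark a full cyclic AMP response element (CRE), the letters TGACGTCA.
Slc25a25 start 1: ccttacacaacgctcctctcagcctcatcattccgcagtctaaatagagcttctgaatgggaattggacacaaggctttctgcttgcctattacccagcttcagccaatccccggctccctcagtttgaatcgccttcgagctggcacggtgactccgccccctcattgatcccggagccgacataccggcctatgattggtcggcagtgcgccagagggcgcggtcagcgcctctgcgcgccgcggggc
Slc25a25 start 2: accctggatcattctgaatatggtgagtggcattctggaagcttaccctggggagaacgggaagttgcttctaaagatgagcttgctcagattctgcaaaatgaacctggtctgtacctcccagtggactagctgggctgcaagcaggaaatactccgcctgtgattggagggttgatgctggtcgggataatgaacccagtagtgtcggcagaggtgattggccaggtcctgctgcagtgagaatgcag
Slc25a25 start 3: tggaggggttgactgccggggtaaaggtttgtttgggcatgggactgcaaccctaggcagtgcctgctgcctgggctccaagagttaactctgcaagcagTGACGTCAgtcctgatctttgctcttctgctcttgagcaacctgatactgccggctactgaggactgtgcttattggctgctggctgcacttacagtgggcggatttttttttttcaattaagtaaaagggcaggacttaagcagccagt
Slc25a30: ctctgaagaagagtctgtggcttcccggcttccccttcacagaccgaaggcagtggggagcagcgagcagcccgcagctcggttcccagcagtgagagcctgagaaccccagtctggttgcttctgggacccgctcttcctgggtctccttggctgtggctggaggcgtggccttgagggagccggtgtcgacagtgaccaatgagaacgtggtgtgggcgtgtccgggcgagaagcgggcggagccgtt
The CRE is known as the site that CREB and its relatives bind when cyclic AMP or calcium signalling is active. Only the third window of Slc25a25 holds it among the 4 windows shown, with its first base 150 bases before the start. In the GENCODE annotation this window is spanned by 6 transcripts of the gene that begin farther upstream and the window of start 2 by 2, while none spans the window of start 1 or that of Slc25a30. The same letters, read on either strand, stood in 1.55% of all 32851 windows of this length. The 35 carriers with a window had 45 windows, and 2 of these held the letters, 1 of Slc25a25 and 1 of Slc25a36. The CRE core TGACG, of which the full site holds a copy on each strand, stood in 17.8% of all windows and in 11 of the 45, from 10 carriers. The AP-1 site TGANTCA stood in 6.75% of all windows and in 2 of the 45, those of Slc25a11 and Slc25a13. The element of the estrogen-related receptors, TNAAGGTCA, stood in 1.14% of all windows and in none of the 45 carrier windows. The GC box GGGCGG, found in 32.7% of all windows, stood in 32 of the 45, from 25 carriers. The CCAAT box, found in 33.8%, stood in 21, from 18 carriers. A match describes letters and is neither a measured binding site nor a cause, and 11 carriers had no window in the table.

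Because the starts of Slc25a25 give transcripts of unequal length, the length behind each value was examined. The ratio of count to FPKM carries the length by which the authors divided, and it was taken relative to the median gene of the same library on the log2 scale. For Slc25a25 it lay between 0.185 and 0.202 in all 6 libraries, and the EX mean was lower than the Con mean by a log2 difference of -0.011, with no overlap between groups (two-sided exact permutation test, p = 0.1, and 3 mice against 3 can give no smaller p). In the GENCODE annotation of GRCm38, Slc25a25-203, which begins at the third start, is 2541 bases long and Slc25a25-201, which begins at the first, is 3294 bases long. The difference between these lengths is -0.37 on the log2 scale. Other annotated transcripts of the gene differ from Slc25a25-203 in either direction or hardly at all, with Slc25a25-204 at 2643 bases, Slc25a25-208 at 789 bases and Slc25a25-202 at 3529 bases, so a change of start need not move this measure. The files give no values per transcript, so the start that the reads came from was not measured. Among the 37 carriers tested, 26 varied by less than 0.05 (log2) in this measure over the 6 libraries. The largest difference between groups was 0.10 for Slc25a32, the folate and FAD carrier, whose log2 fold change in the count test was -0.01 (adjusted p = 0.933), while its FPKM, which depends on that length, was 4.35 ± 0.122 in Con and 3.87 ± 0.318 in EX.

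In all, 6 of the 37 carriers tested were called, 4 higher and 2 lower in EX. The background was 17.9% of all genes tested called in either direction, 9.11% higher and 8.8% lower, so the number of carriers called was near the background and is not a result about the family. The median log2 fold change was 0.04 over the carriers and -0.0009 over all genes tested, with 24 of the 37 carriers positive, and the carriers' median turned to -0.01 with limma on FPKM and -0.05 with limma on TPM. The CPM of the 2 groups did not overlap for 14 of the 37 carriers, against 33.7% of all genes tested. The split of the calls depended on the scale: with limma on log2(FPKM + 0.1) or log2(TPM + 0.1), 2 carriers were called higher and 3 lower, where all genes had a median of -0.06 and -0.09. Slc25a25 and Slc25a30 were called higher in all 15 alternative fits.

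**Figure D1:**
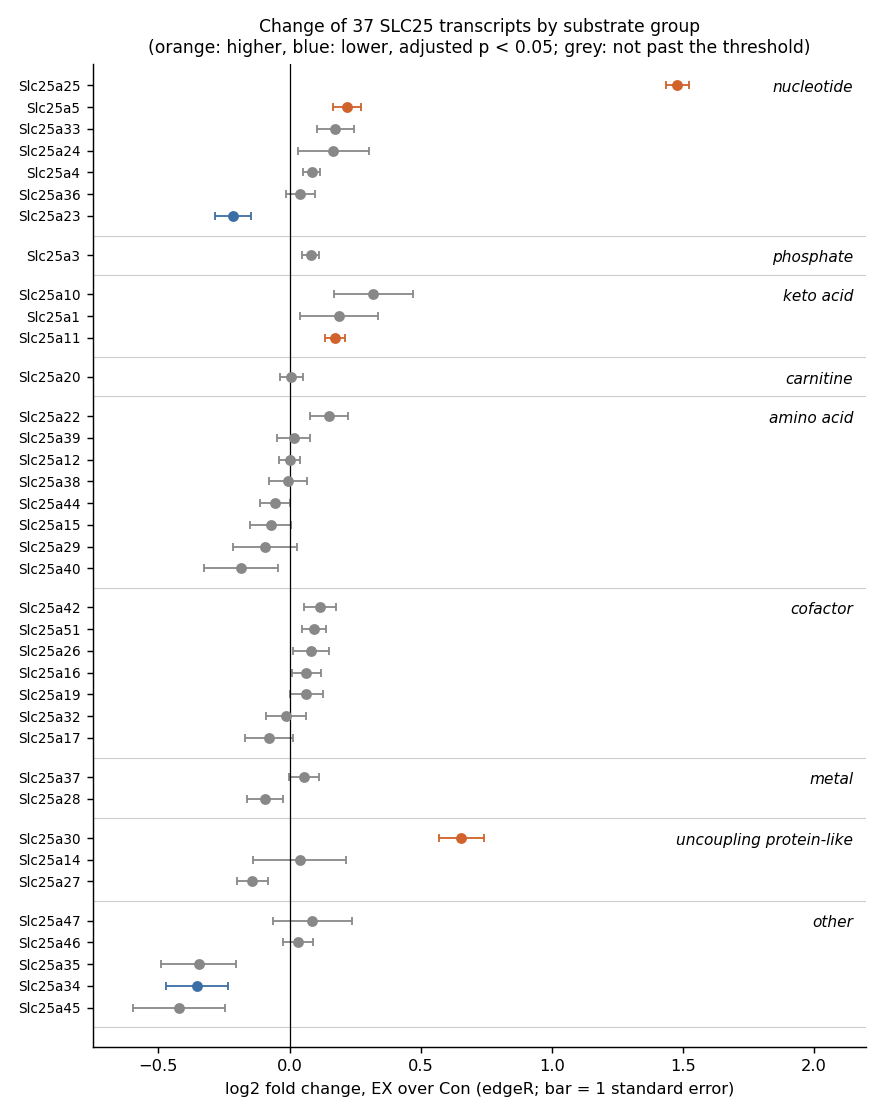
Log2 fold change of the 37 carriers tested, EX over Con, from edgeR, grouped by substrate, with bars of 1 standard error. Slc25a25 at 1.48 and Slc25a30 at 0.66 stand to the right of all other carriers, whose values lie between -0.42 and 0.32.

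Of the 7 nucleotide carriers tested, 3 were called, against 17.9% of all genes tested, and the group was not tested for an excess of calls. Besides Slc25a25, they were the ADP/ATP exchanger Slc25a5 and the second ATP-Mg/phosphate carrier Slc25a23. Slc25a5 (11740), or ANT2, is known as the form of growing cells. Its counts were 581, 660 and 708 in Con and 823, 746 and 785 in EX, and its level rose from 42.7 ± 1.49 to 49.8 ± 2.21 CPM (log2 fold change 0.22, standard error 0.05, adjusted p = 3.66e-03). The lowest EX library stood at 47.5 CPM and the highest Con library at 44.4 CPM, so the groups were close but did not overlap. In the 3 limma fits on FPKM or TPM the change of Slc25a5 lay between 0.13 and 0.16 and was not called (adjusted p from 0.0769 to 0.136).

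Slc25a4 (11739), or ANT1, the ADP/ATP exchanger of heart and muscle, was the most abundant carrier by a wide margin. Its FPKM was 3348, 3633 and 3674 in Con and 3575, 3681 and 3579 in EX, so that on this scale the groups overlapped. Counts after TMM scaling were 3521 ± 137.3 CPM in Con and 3731 ± 93.4 in EX and did not overlap, yet the log2 fold change of 0.08 (standard error 0.03) was not called (adjusted p = 0.088). The sign of this value turned with limma on TPM, to -0.01. Slc25a4 alone made up 69.83% ± 1.002 of the summed TPM (a per-length level with the same total in every library) of all carriers in Con and 69.48% ± 0.405 in EX. The ratio of Slc25a4 to Slc25a5 in TPM was 77.7, 82.8 and 77.9 in Con and 67.8, 77.8 and 71.6 in EX. One EX library lay within the Con range, and the mean log2 ratio differed by -0.14 (two-sided exact permutation test, p = 0.2). The germ cell form Slc25a31 had 0 or 1 count in every library, where a count of 0 allows up to 3 counts, for counting error only.

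Of the other ATP-Mg/phosphate carriers, Slc25a23 fell and Slc25a24 was not called. Slc25a23 (66972) had counts of 400, 387 and 424 in Con and 368, 367 and 347 in EX, and its level fell from 26.6 ± 2.04 to 22.9 ± 0.729 CPM (log2 fold change -0.22, standard error 0.07, adjusted p = 0.0277). The lowest Con library, at 24.6 CPM, stood just above the highest EX library, at 23.4. This call was lost with DESeq2 (adjusted p = 0.126) and with any library but Con replicate 2 left out, where the adjusted p ranged from 0.0511 to 0.122. Slc25a24 (229731) was low, with counts of 64, 76 and 72 for Con mice and of 79, 83 and 85 for EX mice, and its log2 fold change of 0.17 (standard error 0.14) was not called (adjusted p = 0.436). The fourth, Slc25a41, which lacks the calcium-binding domain, had no count in Con and 1 count in each EX library, at or under the limit that a count of 0 allows in both groups.

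Ratios within a library do not depend on scaling between libraries. The TPM of Slc25a25 was 2.34, 2.61 and 2.53 times that of Slc25a23 in the Con libraries and 8.24, 7.76 and 8.42 times in the EX libraries. The groups lay far apart, with a difference of 1.71 between the mean log2 ratios (two-sided exact permutation test, p = 0.1, adjusted over 8 ratios 0.267). Against Slc25a24 the ratio was 14.7, 13.4 and 15.0 in Con and 38.6, 34.6 and 34.7 in EX, a log2 difference of 1.32 with the same p-values. With 3 mice a group no such test can go below 0.1, so neither ratio can pass 0.05. Since Slc25a25 is in the numerator of both, they are not independent of each other or of its own change.

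**Figure D2:**
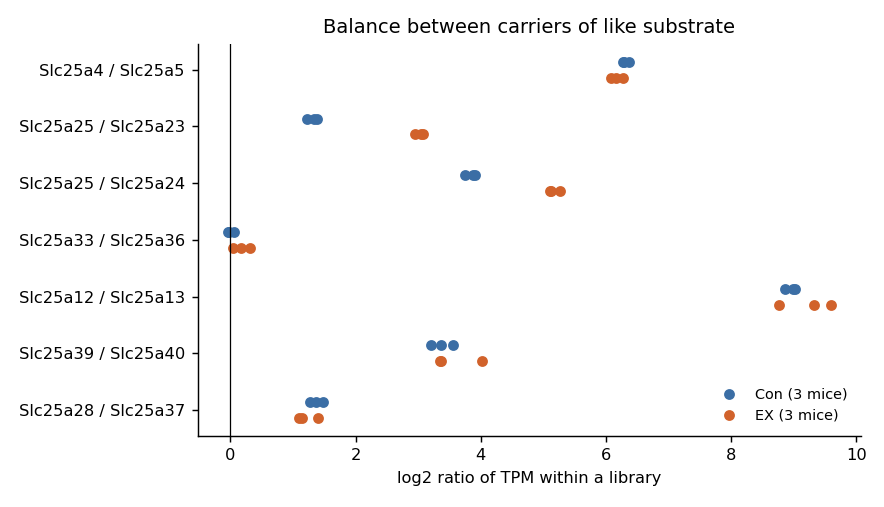
Log2 of the ratio of TPM of 2 carriers with a like substrate, with 1 point per mouse, Con in blue and EX in orange. For Slc25a25 over Slc25a23 the mean went from 1.32 in Con to 3.02 in EX and over Slc25a24 from 3.84 to 5.17, while the ranges of the groups overlap for the other 5 pairs drawn. The pair of Slc25a18 and Slc25a22 is left out, since Slc25a18 had 1 to 5 counts.

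The pyrimidine nucleotide carriers Slc25a33 and Slc25a36, which supply mitochondrial DNA and RNA synthesis, were at a like level, with 12.8 ± 1.09 and 12.9 ± 0.717 FPKM in Con. Slc25a33 (70556) had 18.1, 19.8 and 20.95 CPM in Con and 22.0, 22.4 and 22.2 CPM in EX, which did not overlap. Its log2 fold change of 0.17 (standard error 0.07) was not called (adjusted p = 0.0921). For Slc25a36 (192287), which shares the full CRE with Slc25a25, the log2 fold change was 0.04 (standard error 0.06, adjusted p = 0.67) and turned to between -0.09 and -0.01 in the limma fits and without EX replicate 1. Summed over the nucleotide group, TPM was 5312 ± 245.5 in Con and 5329 ± 41.0 in EX, a sum set almost wholly by Slc25a4.

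Slc25a3 (18674), the phosphate carrier that feeds ATP synthase and also brings copper into the matrix, was the second most abundant carrier. Its FPKM was 802, 833 and 806 in Con and 827, 828 and 822 in EX, and it made up 16.01% of the carriers' TPM in Con and 15.89% in EX. The 3 EX libraries lay within the range of the 3 Con libraries on FPKM and above it on CPM. On counts its log2 fold change was 0.08 (standard error 0.03, adjusted p = 0.0965), and with limma on TPM it was -0.01.

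Among the keto acid and dicarboxylate carriers, Slc25a11 rose. Slc25a11 (67863) exchanges 2-oxoglutarate for malate and is one of the carriers of the malate-aspartate shuttle. It had 196.9, 200.4 and 208.7 CPM in Con and 220.9, 233.1 and 229.5 CPM in EX. All EX mice lay above all Con mice, with an increase of 1.13-fold (log2 fold change 0.17, standard error 0.04, adjusted p = 1.93e-03). In the limma fits on FPKM or TPM its change lay between 0.08 and 0.11 and was not called (adjusted p from 0.0952 to 0.189). The other carriers of the group that were tested were low, with 3.60 ± 0.676 FPKM in Con for Slc25a1, which exports citrate, and 1.15 ± 0.188 for Slc25a10, which exchanges dicarboxylates for phosphate. Their log2 fold changes of 0.19 (adjusted p = 0.425) and 0.32 (adjusted p = 0.151) were not called, and Slc25a10 was called without Con replicate 1 (adjusted p = 0.0462). Slc25a21, the 2-oxoadipate carrier, had 2 counts in each Con library and 0, 1 and 0 in EX.

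The partner of Slc25a11 in the shuttle, the aspartate/glutamate carrier Slc25a12 (78830), also named aralar, was the third most abundant carrier. Its level was 532.5, 486.9 and 466.2 CPM in Con and 489.6, 498.3 and 498.4 CPM in EX. The EX values all lay inside the Con range, and the log2 fold change was 0.00 (standard error 0.04, adjusted p = 0.987), with the sign turned in 9 of the 15 alternatives. Its liver paralog Slc25a13, or citrin, had between 10 and 17 counts in each library, so that the TPM of Slc25a12 was 497.5 ± 30.8 times that of Slc25a13 in Con and 617.7 ± 171.3 times in EX, with overlap (two-sided exact permutation test, p = 0.4). Of the 4 enzymes of the shuttle, the mitochondrial aspartate aminotransferase Got2 (log2 fold change 0.16, standard error 0.04, adjusted p = 1.3e-03) and the cytosolic malate dehydrogenase Mdh1 (0.15, standard error 0.03, adjusted p = 1.5e-03) rose. Both lost the call in 3 of the 15 alternatives, while Got1, at 0.06, and Mdh2, at 0.04, were not called. In the glycerol phosphate shuttle, the other route for cytosolic reducing power, the cytosolic enzyme Gpd1 rose by 0.20 (standard error 0.03, adjusted p = 1.06e-04) and the mitochondrial Gpd2 was not called, at 0.05.

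None of the 8 amino acid and glutathione carriers tested was called, with log2 fold changes from -0.19 to 0.15. Slc25a39 (68066), a glutathione carrier, had 34.1, 33.7 and 32.2 CPM in Con and 32.6, 31.5 and 36.96 in EX. The values overlapped, and the log2 fold change was 0.02 (standard error 0.06, adjusted p = 0.903), negative in 6 of the 15 alternatives. Its paralog Slc25a40 was at 2.46 ± 0.295 FPKM in Con and 2.10 ± 0.379 in EX (log2 fold change -0.19, standard error 0.14, adjusted p = 0.409). The ratio of the former to the latter overlapped between groups, with 1 EX library at 16.2 and the other 5 libraries between 9.23 and 11.8. Slc25a22, which carries glutamate with a proton, was at 18.2 ± 0.742 CPM in Con and 20.2 ± 0.858 in EX, and the values did not overlap. Its log2 fold change of 0.15 (standard error 0.07) was not called (adjusted p = 0.158). Its paralog Slc25a18 had 1 to 3 counts in Con and 3 to 5 in EX, and Slc25a2, an ornithine carrier, had between 3 and 10 counts, and neither was called without the filter.

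Slc25a44, the carrier of branched-chain amino acids, is shown beside the breakdown of these amino acids. It stood at 12.01 ± 0.1997 FPKM in Con and 11.1 ± 0.540 in EX, and its log2 fold change was -0.05 (standard error 0.06, adjusted p = 0.564). None of the 6 genes of branched-chain amino acid breakdown was called, and 5 of them had a negative value, with a median of -0.07. The lowest was Ppm1k, the phosphatase that turns the dehydrogenase on, at -0.22 (standard error 0.08, adjusted p = 0.0546), which was called lower in 3 of 14 alternatives, and Bckdha, Bckdhb and Bckdk were each called lower in 1 of 15.

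Slc25a20 (57279), the carnitine/acylcarnitine carrier, had 82.1, 79.4 and 81.8 CPM in Con and 79.4, 80.0 and 85.1 CPM in EX. The groups overlapped, and its log2 fold change was 0.01 (standard error 0.05, adjusted p = 0.937), with the sign turned in 7 of the 15 alternatives and -0.09 as the lowest value. None of the 4 enzymes that make and use acylcarnitines, Cpt1a, Cpt1b, Cpt2 and Crat, was called, with values from -0.05 to -0.01. Cpt1b and Crat were each called lower in 1 of 15 alternatives.

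The metal carriers are the mitoferrins, which bring in iron for haem and iron-sulphur clusters. Slc25a28 (246696), the form of most tissues, had 27.0, 26.5 and 23.6 CPM in Con and 23.3, 25.0 and 23.8 CPM in EX, which overlapped. Its log2 fold change was -0.10 (standard error 0.07, adjusted p = 0.372). Slc25a37, the form known from red cell precursors, was at 9.68 ± 0.172 FPKM in Con and 9.71 ± 0.641 in EX (log2 fold change 0.06, standard error 0.06, adjusted p = 0.546, and -0.03 with limma on TPM). Slc25a28 was 2.59 ± 0.177 times as high as Slc25a37 in Con and 2.33 ± 0.274 times in EX on TPM, with overlap (two-sided exact permutation test, p = 0.3). Of 7 genes that use mitochondrial iron, Alas1, the first enzyme of haem synthesis outside red cells, rose by 0.19 (standard error 0.04, adjusted p = 8.45e-04), and the other 6 were not called.

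Of the 7 cofactor carriers, none was called, and their log2 fold changes lay between -0.08 and 0.12. They bring in coenzyme A, NAD, thiamine pyrophosphate, S-adenosylmethionine, folate and FAD, with Slc25a17 in the membrane of the peroxisome. Of the 3 uncoupling protein-like carriers, Slc25a30 rose as described, while Slc25a14 (0.04, adjusted p = 0.915) and Slc25a27 (-0.14, adjusted p = 0.0981) were not called. Slc25a27 was called lower without EX replicate 1 and with totals that left out the 20 most abundant genes. Among relatives of the family with other names, Ucp3, the uncoupling protein of skeletal muscle, had 193.0, 169.5 and 165.7 CPM in Con and 246.3, 250.8 and 245.4 CPM in EX. It rose by 0.49 (standard error 0.05, adjusted p = 4.77e-09), in all 15 alternatives as well, and Ucp2, at 0.21 (standard error 0.10), was not called (adjusted p = 0.154).

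Of the 5 carriers tested whose substrate is unsettled or whose function lies elsewhere, Slc25a34 (384071) was called. Its counts were 126, 142 and 116 in Con and 100, 109 and 103 in EX, and its level fell from 8.45 ± 1.02 to 6.596 ± 0.320 CPM (log2 fold change -0.35, standard error 0.12, adjusted p = 0.040). The groups came close, at 7.28 CPM for the lowest Con library and 6.94 for the highest EX library. The call was lost with DESeq2 (adjusted p = 0.16) and with any library but Con replicate 3 left out (adjusted p from 0.0579 to 0.145). Its relative Slc25a35, at -0.35 (standard error 0.14, adjusted p = 0.092), and Slc25a45, at -0.42 (standard error 0.18, adjusted p = 0.0994), had values of like size that were not called, and Slc25a35 was called lower without EX replicate 2. Slc25a45 had the lowest value of the family and was called lower in the 3 limma fits. Slc25a43 had 0 to 3 counts a library, Slc25a53 had 6 to 21, and Slc25a48 had 1 count in EX replicate 2 and none in the other libraries.

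**Figure D3:**
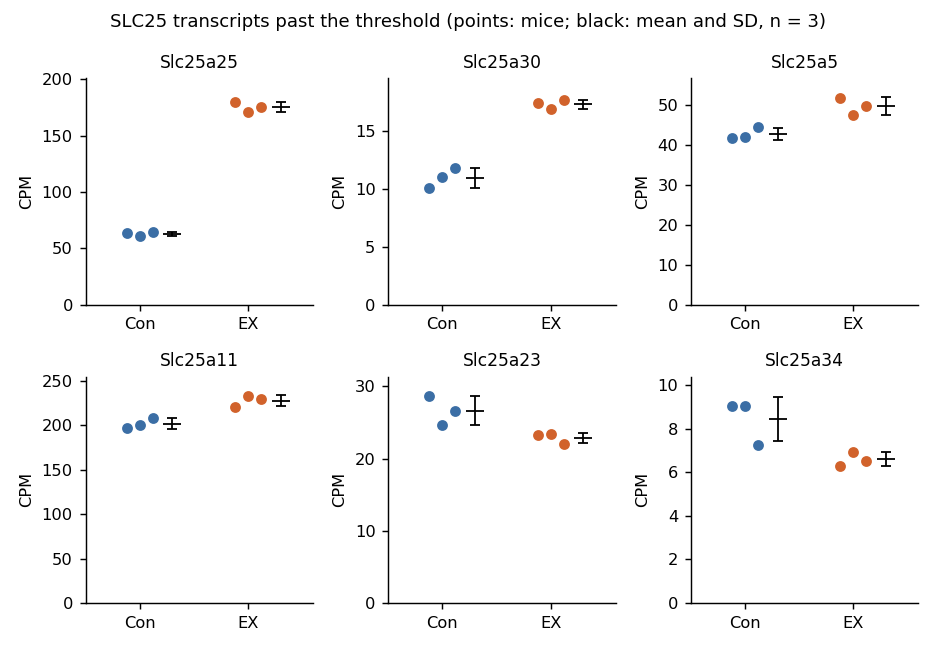
CPM of the 6 carriers called by edgeR in each mouse, Con in blue and EX in orange, with the mean and SD of 3 mice in black and axes that start at 0. In every panel the groups do not overlap, by a wide gap for Slc25a25 (63.0 against 175.6 CPM) and by a narrow one for Slc25a23 and Slc25a34.

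The order of the carriers by level was steep. In Con muscle Slc25a4 stood at 3552 ± 177.6 FPKM, Slc25a3 at 813.4 ± 16.7, Slc25a12 at 177.9 ± 10.4, Slc25a11 at 134.8 ± 5.43, Slc25a20 at 58.0 ± 1.26 and Slc25a5 at 44.7 ± 2.17, and no 2 neighbours among these overlapped between mice. Slc25a39, at 25.4 ± 0.0854, and Slc25a28, at 25.1 ± 2.06, did overlap, and Slc25a25 followed at 22.1 ± 0.586. In EX muscle Slc25a25 was at 59.8 ± 2.11 FPKM, above Slc25a20 at 55.9 ± 2.13 and Slc25a5 at 50.0 ± 2.70, and its share of the carriers' TPM was 1.15% against 0.436% in Con. The values of Slc25a25 and Slc25a20 in EX overlapped between mice, from 57.7 to 61.9 and from 54.4 to 58.4 FPKM. Summed TPM of all carriers was between 7110 and 7543 in Con and between 7351 and 7405 in EX, so the groups overlapped. Summed CPM was between 5834 and 6054 in Con and between 6296 and 6489 in EX and did not overlap. The 2 scales differ in the scaling between libraries and in the weight of long transcripts. Slc25a3, alone in its group, had a log2 difference of -0.0134 on TPM and 0.0807 on CPM. The cause of the difference between scales was not tested.

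**Figure D4:**
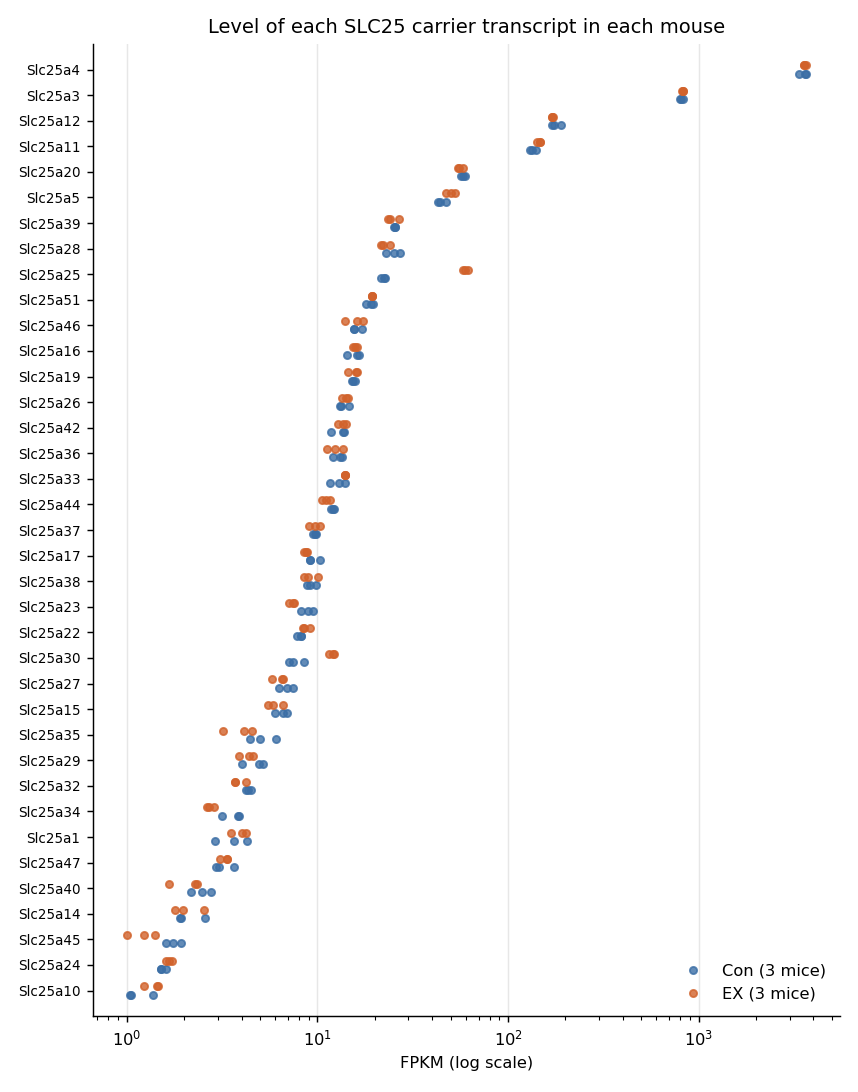
FPKM of the 37 carriers tested in each mouse, on a log axis, ordered by the mean in Con, with Con in blue and EX in orange. Slc25a4, at a mean of 3552 FPKM in Con, stands above all others, and Slc25a25 and Slc25a30 are the carriers whose EX points lie clearly to the right of their Con points.

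By substrate group, summed TPM did not overlap between Con and EX for 5 of 9 groups, the amino acid, keto acid, metal, uncoupling protein-like and other carriers. The differences were small. The keto acid carriers stood at 202.9 ± 6.14 TPM in Con and 214.0 ± 2.40 in EX, and the uncoupling protein-like carriers at 24.3 ± 1.73 and 28.8 ± 1.23. The amino acid carriers stood at 359.3 ± 14.5 and 337.9 ± 4.69 TPM, the metal carriers at 50.5 ± 3.37 and 45.7 ± 0.949 and the other carriers at 43.7 ± 1.61 and 38.7 ± 1.85. For each of the 5 the two-sided exact permutation test gave p = 0.1, the smallest value possible, and 0.2 after adjustment over the 9 groups and the sum of all carriers together. On summed CPM only the keto acid carriers of these 5 groups were still separate, with a log2 difference of 0.18. The amino acid, metal, uncoupling protein-like and other carriers overlapped on that scale, with differences of -0.0008, -0.0034, 0.07 and -0.04, while the nucleotide (0.12), phosphate (0.08) and cofactor (0.07) carriers, which overlapped on TPM, were separate. Which groups stood apart thus depended on the scale. All genes tested had a median of -0.09 with limma on TPM. Beside it, the log2 ratios of summed TPM were -0.09 for the amino acid, -0.15 for the metal and -0.17 for the other carriers. The share of all genes without overlap was taken on CPM only, so no such share stands beside the 5 groups on TPM.

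Of 47 genes tested among 49 that work beside the carriers, 7 were called higher and none lower by edgeR, against 9.11% higher and 8.8% lower among all genes tested. Besides Got2, Mdh1, Gpd1, Ucp3 and Alas1, these were Mpc2, a subunit of the mitochondrial pyruvate carrier (log2 fold change 0.12, standard error 0.04, adjusted p = 0.0432), and Micu2, a calcium-sensing subunit of the mitochondrial calcium uniporter (0.23, standard error 0.06, adjusted p = 0.0121). Mpc2 was called in 5 of the 15 alternatives and Micu2 in 8. The voltage-dependent channels of the outer membrane, Vdac1, Vdac2 and Vdac3, through which the same metabolites pass, were not called, at 0.00, 0.07 and -0.01. Of 5 genes that follow mitochondrial content, Cs, Tfam, Tomm20, Cox4i1 and Atp5a1, none was called, with values from -0.13 to 0.04, although Tomm20, the lowest, was called lower in 4 of the 15 alternatives. Glutathione synthesis and use had no call among 5 genes, although Gclc, at -0.17 (adjusted p = 0.0715), was called lower in 2 of the 15 alternatives. Over the 15 alternatives the number of these partner genes called ranged from 3, all higher, in both limma fits on FPKM to 10 with limma on TPM. Of those 10, 1 was higher and 9 were lower, where that fit called 340 of all 10883 genes higher and 1684 lower.

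Markers of fibre and cell types also differed between the groups. All 8 slow fibre markers rose, with a summed level between 141.7 and 148.8 CPM in Con and between 413.7 and 443.8 in EX, and 4 of 8 fast fibre markers rose and 2 fell, of which Mylpf, Actn3 and Myh2 were called in all 15 alternatives. Of 6 macrophage markers, 5 were tested and 4 rose (between 32.4 and 35.5 CPM summed in Con and between 59.5 and 64.4 in EX), and 3 of 5 endothelial markers fell (546.4 to 562.3 against 470.9 to 494.6). Of 7 adipocyte markers, 5 were tested, Adipoq, Cidec and Retn rose and Car3, which muscle fibres also express, fell, and the sum was between 1235 and 1287 CPM in Con and between 930.8 and 969.4 in EX. Car3 carried that sum, while Adipoq, Cidec and Retn, all low, moved the other way, by log2 fold changes from 1.19 to 1.55. Fabp4, at 229.2 CPM in Con and 215.3 in EX, was not called (log2 fold change -0.09, edgeR adjusted p = 0.112) but was called lower in 3 of the 15 alternatives. Lep had no count in 1 Con library. Of 4 erythroid markers, Hba-a1 rose, and the 1 brown fat marker tested was not called. All EX libraries lay on the same side of all Con libraries in the sums of the slow fibre, fast fibre, macrophage, endothelial, adipocyte and erythroid markers, as they did for Slc25a25 and Slc25a30, and the part of fibre type and of other cells in the carriers' changes was not tested.

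**Figure D5:**
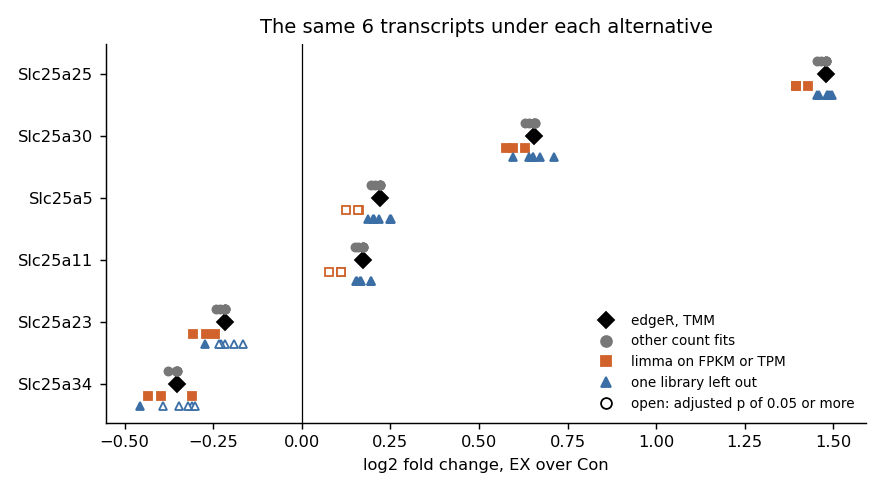
Log2 fold change, EX over Con, of the 6 called carriers under edgeR and each alternative fit. Filled marks have an adjusted p under 0.05 and open marks do not. Slc25a25 and Slc25a30 are filled throughout, Slc25a5 and Slc25a11 are open in the 3 limma fits, and Slc25a23 and Slc25a34 are open in DESeq2 and when most single libraries are left out.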

How the data were processed

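The data are RNA sequencing of hind leg muscle from 3 Con and 3 EX mice, grouped by the treatment in the labels. The authors sequenced 150 bp read pairs on DNBseq instruments, removed low-quality reads and matched the rest with HISAT to the mouse assembly GRCm39. The submitters' processing notes name GRCm38.p6, cutadapt, featureCounts and MultiQC, so the assembly and the counting tool are not settled, and 4.18% to 4.44% of counts per library were not whole numbers. The authors deposited an estimated count, which is not normalized, an FPKM and a TPM value per gene and library. The 6 columns of group means that the authors deposited were not used.

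The estimated counts were rounded and compared with edgeR 4.0.16 (TMM, glmQLFit, glmQLFTest) in R 4.3.3 for the 10883 genes whose mean reached 1 FPKM. This filter left 9 carriers untested. Summed TPM, TPM ratios and length per count were compared by exact permutation tests. Alternatives were DESeq2 1.42.0, limma 3.58.1 on log2(FPKM + 0.1), log2(FPKM + 1) and log2(TPM + 0.1), median-ratio size factors, totals without the 20 most abundant genes, no filter or a filter of 5 FPKM, a replicate block and each library left out. On the log2(value + pseudocount) scale, limma understates changes of low genes. The fits were tested on simulated data. Carriers were named with values where they were called, had a mean of at least 20 FPKM, belonged to a pair of like substrate, were alone in their group or were under the filter, and Slc25a1, Slc25a10, Slc25a14, Slc25a27, Slc25a32, Slc25a35, Slc25a44 and Slc25a45 after their values were seen. The members, substrate groups and gene lists were chosen with earlier results of these data known. Promoter windows came from RefSeq (GRCm38.p6), matched by gene identifier for 35 carriers, and transcript lengths from GENCODE. Reads of close paralogs may be split by the counting, and no strand setting is given.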

Additional observations from a re-analysis of the deposited data

How the results depend on the processing

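Under the 15 alternative fits the number of carriers called lay within 1.5 times the 6 reported, and none of the 6 turned its sign. Of the 18 carriers named by the rule, 7 that were not called turned sign in some fit, with values of at most 0.08 (log2) in the report, and so did Slc25a14 and Slc25a32. With limma on log2(FPKM + 0.1), log2(FPKM + 1) or log2(TPM + 0.1), 2 carriers were called higher. The carriers called lower numbered 0 with DESeq2, 1 with a filter of 5 FPKM and from 0 to 1 with 1 library left out, against 2 in the report, and the calls of Slc25a23 and Slc25a34 were each lost in 5 of the 6 fits without 1 library. At 5 FPKM, Slc25a34 was not tested. The cause of the other differences was not tested. For the partner genes, whose alternatives were chosen after seeing the data, the calls were 3, all higher, with limma on FPKM (either pseudocount). With limma on TPM they were 1 higher and 9 lower, beside 340 higher and 1684 lower among all genes. Partner genes called lower numbered 1 at 5 FPKM, 3 without the 20 most abundant genes and from 0 to 1 with 1 library left out.

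On summed CPM in place of TPM, the log2 differences were 0.1231 for nucleotide, 0.0807 for phosphate, -0.0008 for amino acid, 0.1758 for keto acid, 0.0065 for carnitine, -0.0034 for metal, 0.0704 for cofactor, -0.042 for other and 0.0726 for uncoupling protein-like carriers. On counts in place of TPM the ratio of Slc25a18 to Slc25a22 differed by 0.90 against 1.54, on 1 to 5 counts of Slc25a18. Deviations of same-numbered mice from their group means had correlations of -0.0787, -0.0496 and -0.0116. Those of mice with unlike numbers reached 0.0934 and 0.0607, so with 3 mice a group these values cannot decide whether the numbers pair mice. With the replicate number as a block 6 carriers were called, 4 higher and 2 lower, of 1782 genes. All genes called numbered 1228 with DESeq2 and 1949 with edgeR. With 3 mice a group, exact permutation tests cannot pass 0.05, and none of the 9 carriers under the filter was called without it.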
